A study of Mus musculus with 40 samples.

Results

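Insulin signalling and glucose uptake were followed through 10 genes, Insr, Irs1, Irs2, Pik3r1, Akt2, Foxo1, Slc2a4, Slc2a1, Pck1 and Ghr. A probe belonged to the set when the deposited table of fold changes gives it one of these symbols, which took 19 of 40628 probes and 10 of 29411 gene symbols. Where a gene has several probes, the brightest on average stands for it, and all 10 entered every comparison below. The RNA came from the subcutaneous stromal vascular cells of C57BL/6J mice, which were weaned at 3 to 4 weeks of age and split into groups of 30 animals. The low-fat control group (LFC) had a diet with 10% of its calories from fat. The high-fat group (HFC) had a sucrose-rich diet with 60% of its calories from fat. The groups named HF5, HF20 and HF75 were given that high-fat diet with 5, 20 or 75 µg of the ethno-botanical formulation Kal-1. LFC and HFC were each measured on 11 arrays, at days 1, 6, 10 and 14 and at weeks 0, 3, 6, 9, 12, 15 and 18, where week 0 falls on day 14. HF5 was measured on 6 arrays at weeks 3 to 18, and HF20 and HF75 on 5 arrays each at weeks 3 to 15. Each diet thus has 1 array per time label, while the design text of the series speaks of 3 biological replicates, and the labels do not state how many mice stand behind an array.

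Insulin binds its receptor, whose kinase marks docking proteins that bring phosphoinositide 3-kinase to the membrane and switch on the kinase Akt. In fat cells Akt moves stored glucose transporters to the surface, so that uptake rises, and keeps the transcription factor Foxo1 out of the nucleus. The stromal vascular fraction holds the precursors of fat cells, fibroblasts, vessel cells and immune cells, and mature fat cells, the main site of insulin-driven glucose uptake in this tissue, are meant to be removed from it.

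Levels are log2 intensities minus the 75th percentile of the same array, so that 0 is the 75th percentile and 1 unit is a factor of 2. A comparison was called when the limma p, adjusted over all probes tested by the method of Benjamini and Hochberg, was under 0.05. Before the results, 3 arrays stood apart. On the LFC array of week 3, 17.2% of probes were well above background, against a median of 69.6% over the 38 arrays, and 5 of the 10 genes were not. On the LFC array of the label day 14, the scanner software marked 9104 spots. The rank correlation of an array with each of the others had a median of 0.509 for the first and 0.465 for the second, and from 0.834 to 0.943 for the rest. The lowest of the rest, 0.834, was the LFC array of week 18, where Irs1 and Ghr were not well above background.

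The series title speaks of infiltrating macrophages, while the sample labels name stromal vascular cells, and the material was checked with lists of marker genes. The fibroblast list, with Col1a1 and Dcn among its 6 genes, had a mean level between 2.91 and 5.71 on 37 arrays and of -5.31 on the LFC array of week 18. That array also had the lowest adipocyte list, at -4.05, and the highest erythroid list, at 6.48, so that the markers of stroma were nearly absent from it. The macrophage list lay between -1.81 and 2.41, and its most abundant gene was Cd14. The adipocyte list, with 10 of 10 genes measured and Fabp4 as the most abundant, was high on 10 arrays, where it lay between 4.62 and 6.15. These were LFC and HFC of day 6, HFC of day 1, LFC, HFC, HF5 and HF20 of week 9, LFC and HF20 of week 12, and HF20 of week 15. On 25 further arrays it lay between 0.16 and 3.50, where each array had 9 or 10 of its 10 genes well above background, so that markers of mature fat cells were measured under all 5 diets. The list of digestion and immediate-early genes, led by Hspa1a, lay between -1.49 and 2.87 on 9 of the 10 arrays with a high adipocyte list and at 3.93 on HFC of day 6, the remaining one. In such bulk samples, fewer cells of a type and less RNA per cell cannot be told apart.

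**Figure D1:**
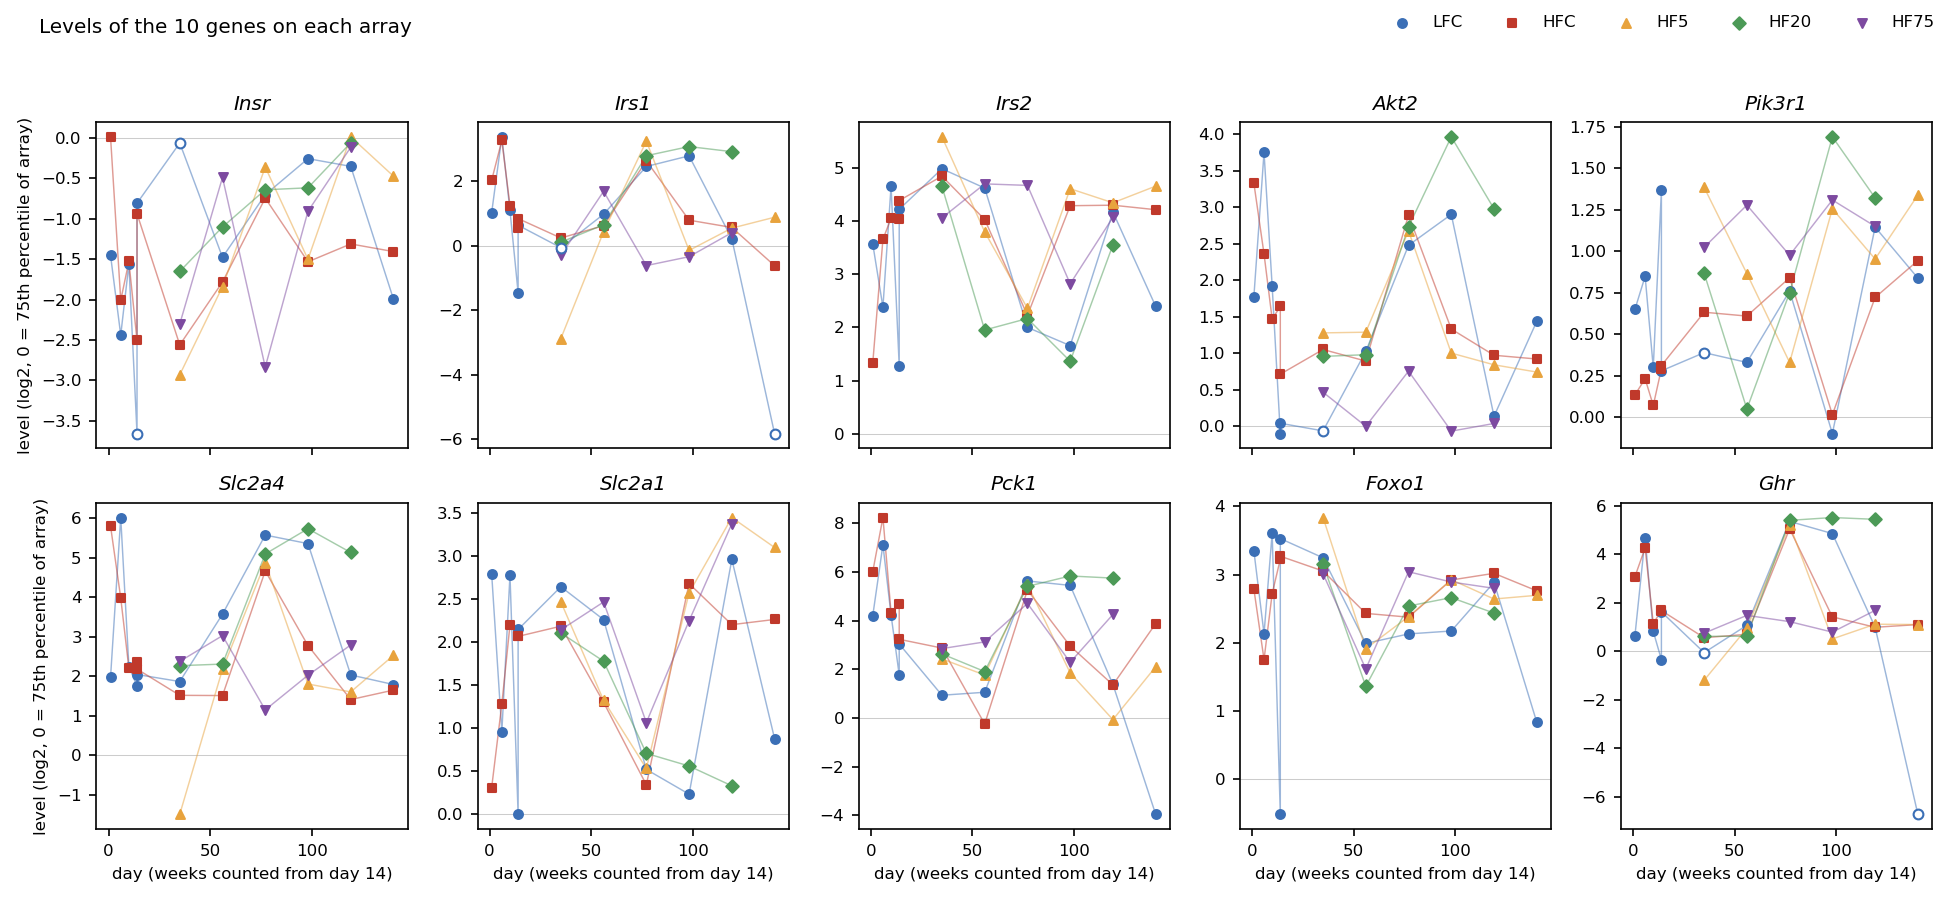
Level of each gene (log2, 0 is the 75th percentile of the array) against time in days, with weeks counted from day 14, where 1 point is 1 array, the marker gives the diet, lines join the arrays of a diet in time order and open points were not well above background. Ghr lay between 5.04 and 5.39 on 4 of the 5 arrays of week 9 and at 1.22 on HF75, and Akt2 lay between -0.06 and 0.76 on the 5 HF75 arrays.

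The 10 genes ran from the receptor to its targets. Insr, the insulin receptor, had a median level of -1.36 over the 38 arrays and a range of -3.66 to 0.02. Irs1, a docking protein of the receptor, had a median of 0.64 and reached from -5.83 on LFC of week 18 to 3.38 on LFC of day 6. Irs2, the other docking protein, was well above background on all 38 arrays, with levels from 1.28 to 5.59 and a median of 4.06. Insr and Irs1 were each well above background on 36 arrays, Insr not on LFC of week 3 and of the label day 14, and Irs1 not on LFC of weeks 3 and 18. Pik3r1, the regulatory subunit of the kinase, was the steadiest of the 10, with a range of -0.10 to 1.69 and an SD of 0.46. Akt2, the Akt form that carries the insulin signal in fat, had a median of 1.04 and a range of -0.10 to 3.96. Foxo1, the transcription factor under its control, had a median of 2.74 and a range of -0.52 to 3.84. The lowest value of Insr, Irs2, Akt2, Foxo1 and Slc2a1 was in each case that of the LFC array labelled day 14, one of the 3 that stood apart.

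Among the transporters and the metabolic genes, Ghr and Pck1 had the largest SDs of the 10 genes. Slc2a4, the transporter that insulin brings to the surface, ranged from -1.49 on HF5 of week 3 to 6.01 on LFC of day 6, with a median of 2.26. Slc2a1, the transporter of basal uptake, ranged from -0.01 to 3.45 with a median of 2.12. Pck1, whose enzyme makes the glycerol backbone of stored fat in adipocytes, had a median of 3.09 and was lowest on LFC of week 18, at -3.95. Ghr, the growth hormone receptor, ranged from -6.72 on LFC of week 18, where it was not well above background, to 5.51 on HF20 of week 12. Over all time points any 2 diets overlapped, except that Akt2 was at most 0.76 in HF75 and at least 0.96 in HF20, and Pik3r1 at least 0.98 in HF75 and at most 0.94 in HFC. The share of all probes parted in this way over these arrays was not counted, so that no weight is put on these exceptions. By median, Slc2a4 stood at 5.09 in HF20 and between 1.99 and 2.38 in HF5, LFC, HFC and HF75, in that order. Ghr stood at 5.39 in HF20 and between 0.99 and 1.41 in LFC, HF5, HF75 and HFC. The HF20 medians lay above the others, which differed from their neighbours in each order by less than the SD of any diet. The diets cover unlike time points in these medians, and over weeks 3 to 15 alone HFC had medians of 1.52 for Slc2a4 and 0.98 for Ghr. The Pck1 probe was saturated on 10 arrays, the 10 named above for their adipocyte list. There its level is the ceiling of the scanner minus the 75th percentile of the array, so that it is a lower bound, the order of these arrays is not one of Pck1, and Pck1 differences that use them are not exact. The same holds for Slc2a4 on LFC of weeks 9 and 12 and for Ghr on HF20 of week 9.

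Genes of the set were called over the weeks of the study and not between diets. Over weeks 3 to 15, with the 5 diets as replicates of each week, Foxo1, Ghr and Pck1 changed with the week. Foxo1 was highest at week 3 and lowest at week 6, while Ghr and Pck1 were highest at week 9. Of the 10 genes, 3 were called, in a comparison that called 14.2% of all probes (4497 of 31567), and 8 had an unadjusted p under 0.05, beside 34.8% of all probes (10979). The median F of the 10 was 4.12, and that of all probes was 2.08.

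Foxo1 levels at week 3 were 3.25 in LFC, 3.05 in HFC, 3.84 in HF5, 3.15 in HF20 and 3.01 in HF75. By week 6 they were 1.99 in LFC, 2.43 in HFC, 1.91 in HF5, 1.36 in HF20 and 1.61 in HF75. All 5 arrays of week 3 lay above all 5 of week 6, where the share of all probes with weeks parted in this way was not counted. At weeks 9, 12 and 15 the means were 2.49, 2.71 and 2.76, between those of weeks 3 (3.26, SD 0.34) and 6 (1.86, SD 0.40). The F was 7.62 with a limma-adjusted p of 0.0167, and the second Foxo1 probe gave 6.35 and 0.0266. With normexp background correction Foxo1 was not called (F 1.65, limma-adjusted p 0.237).

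Ghr levels at week 9 were 5.35 in LFC, 5.04 in HFC, 5.21 in HF5, 5.39 in HF20 and 1.22 in HF75. At week 6 they were 1.07 in LFC, 0.69 in HFC, 0.94 in HF5, 0.61 in HF20 and 1.47 in HF75. In week 9 the 4 arrays other than HF75 lay far above every array of week 6, and HF75 lay within the range of week 6. The HF75 array of week 9 was on another slide and scanned on another day than the other 4. The part of this in its levels was not tested. At week 12 only LFC (4.85) and HF20 (5.51) were high, and at week 15 only HF20 (5.43). The week means were 0.13, 0.96, 4.44, 2.61 and 2.04 in time order, with an F of 7.03 and a limma-adjusted p of 0.0209. The other 2 Ghr probes gave F values of 9.71 and 9.30.

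Pck1 levels at week 9 were 5.63 in LFC, 5.26 in HFC, 5.49 in HF5, 5.41 in HF20 and 4.71 in HF75. At week 6 they were 1.06 in LFC, -0.24 in HFC, 1.77 in HF5, 1.91 in HF20 and 3.13 in HF75. At week 9 the values of LFC, HFC, HF5 and HF20 are lower bounds, and all 5 arrays of that week lay above all 5 of weeks 3 and 6. Here too the share of all probes with weeks parted in this way was not counted. The week means were 2.35, 1.53, 5.30, 3.68 and 2.54 in time order, with an F of 5.99 and a limma-adjusted p of 0.0306.

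The other 7 genes were not called. Among the docking proteins, Irs2 had week means of 4.83, 3.82, 2.69, 2.95 and 4.09 (F 4.73, limma-adjusted p 0.0537), and Irs1 of -0.58, 0.87, 2.10, 1.23 and 0.93 (F 3.74, limma-adjusted p 0.0877). Irs2 was thus lowest in the week in which Irs1, Ghr and Pck1 were highest. Between the transporters the same split was seen in the means. Slc2a4 had a mean of 4.27 and Slc2a1 of 0.63 in week 9, against 1.31 and 2.31 in week 3. Their adjusted p values were 0.0802 and 0.0648 in limma. On HF75 of week 9, however, which was scanned apart from the rest of that week, Slc2a4 (1.15) and Irs1 (-0.62) were at their lowest levels of HF75. Irs2 was at 4.68 there. Slc2a1 was at its lowest of HF75 on that array as well, at 1.06. Akt2 had its highest mean, 2.31, in week 9 (limma-adjusted p 0.0812). Insr went from -1.90 at week 3 to -0.36 at week 15 (limma-adjusted p 0.160), and Pik3r1 stayed between 0.63 and 1.06 (limma-adjusted p 0.777). Under other settings Irs2 was called in 5 of 14, with limma-adjusted p from 0.0296 without HF75 to 0.0475 with no floor, and Slc2a1, Slc2a4, Irs1 and Insr in 2 each and Akt2 in 1.

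The weeks stood in the same order for the adipocyte list as for Pck1, with list means of 1.57, 0.80, 4.44, 3.15 and 1.93. The digestion and immediate-early list, with 7 of its 8 genes on the array, had means of 3.69, 4.81, 1.09, 2.44 and 4.37. The lymphoid lists were highest at week 3, where Foxo1 was, and went from week 3 to week 6 from 2.13 to -3.45 for B cells, from 2.11 to -3.32 for lymph node and from 1.01 to -2.56 for T cells. Over 36 arrays Foxo1 had r 0.677 and rho 0.749 with the lymph node list, and r 0.637 without the 2 arrays farthest from its median. The part of any of these lists in the changes of the 3 genes was not tested. Titles of 4 of the 5 week 9 arrays carry a tag that no other title has, and without week 9 the limma-adjusted p was 0.327 for Pck1, 0.149 for Ghr and 0.0221 for Foxo1, so that 1 of the 3 calls was left. No call was left when HF5, HFC or HF20 was left out, 1 when LFC was, and without the LFC array of week 3 the 3 calls held and Insr was called as well (limma-adjusted p 0.0377). The count over all probes moved too, from 4497 to 3222 without week 9 and to 7030 without the LFC array of week 3. It was 582 without HF5, 541 without HFC, 924 without HF20 and 3457 without LFC. Most arrays of a week were scanned on the same day, so that age, time on the diet and processing day cannot be told apart.

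Across arrays, the markers of mature fat cells were set against each gene, since insulin-driven uptake belongs to those cells. The arrays fall into separate sets along the adipocyte list, with 1 array at -4.05, 25 from 0.16 to 3.50 and 10 from 4.62 to 6.15, where the 2 LFC arrays of week 3 and of the label day 14 were left out and a gap of over 1 unit parts the sets. No correlation over all arrays is given for this reason, and the values below are within sets. Pck1 followed the list within the 25 arrays, with Pearson r 0.900 and Spearman rho 0.885. No value is given for Pck1 within the 10, where its probe was saturated on every array. For Ghr the values were r 0.377 and rho 0.372 within the 25, where it lay from -1.20 to 1.68, and r 0.0495 and rho 0.115 within the 10, where it lay from 3.07 to 5.51. Slc2a1 had r -0.0435 and rho -0.0569 within the 25 and r 0.689 and rho 0.624 within the 10, and Foxo1 had r 0.509 and -0.532. Irs1, Slc2a4 and Akt2 had r values of 0.0607, 0.150 and 0.273 within the 25 and of 0.640, 0.218 and 0.379 within the 10. Within these sets Insr ran against the list, with r -0.285 within the 25 and r -0.840 (rho -0.576) within the 10. Between the sets it went the other way, with a median of -1.48 in the 25 and -0.63 in the 10. Its lowest values in the 10 were those of LFC and HFC of day 6, at -2.44 and -2.01. Irs2 and Pik3r1 had r values of 0.0482 and -0.258 within the 25 and of 0.270 and 0.257 within the 10. These values describe the spread inside a set and not the step between the sets, which is visible in the plot against the list upward for Ghr, Irs1, Slc2a4 and Akt2 and downward for Slc2a1 and Irs2. The arrays share a series and a time course, and the part of fat cell content in any of the 10 genes was not tested.

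**Figure D2:**
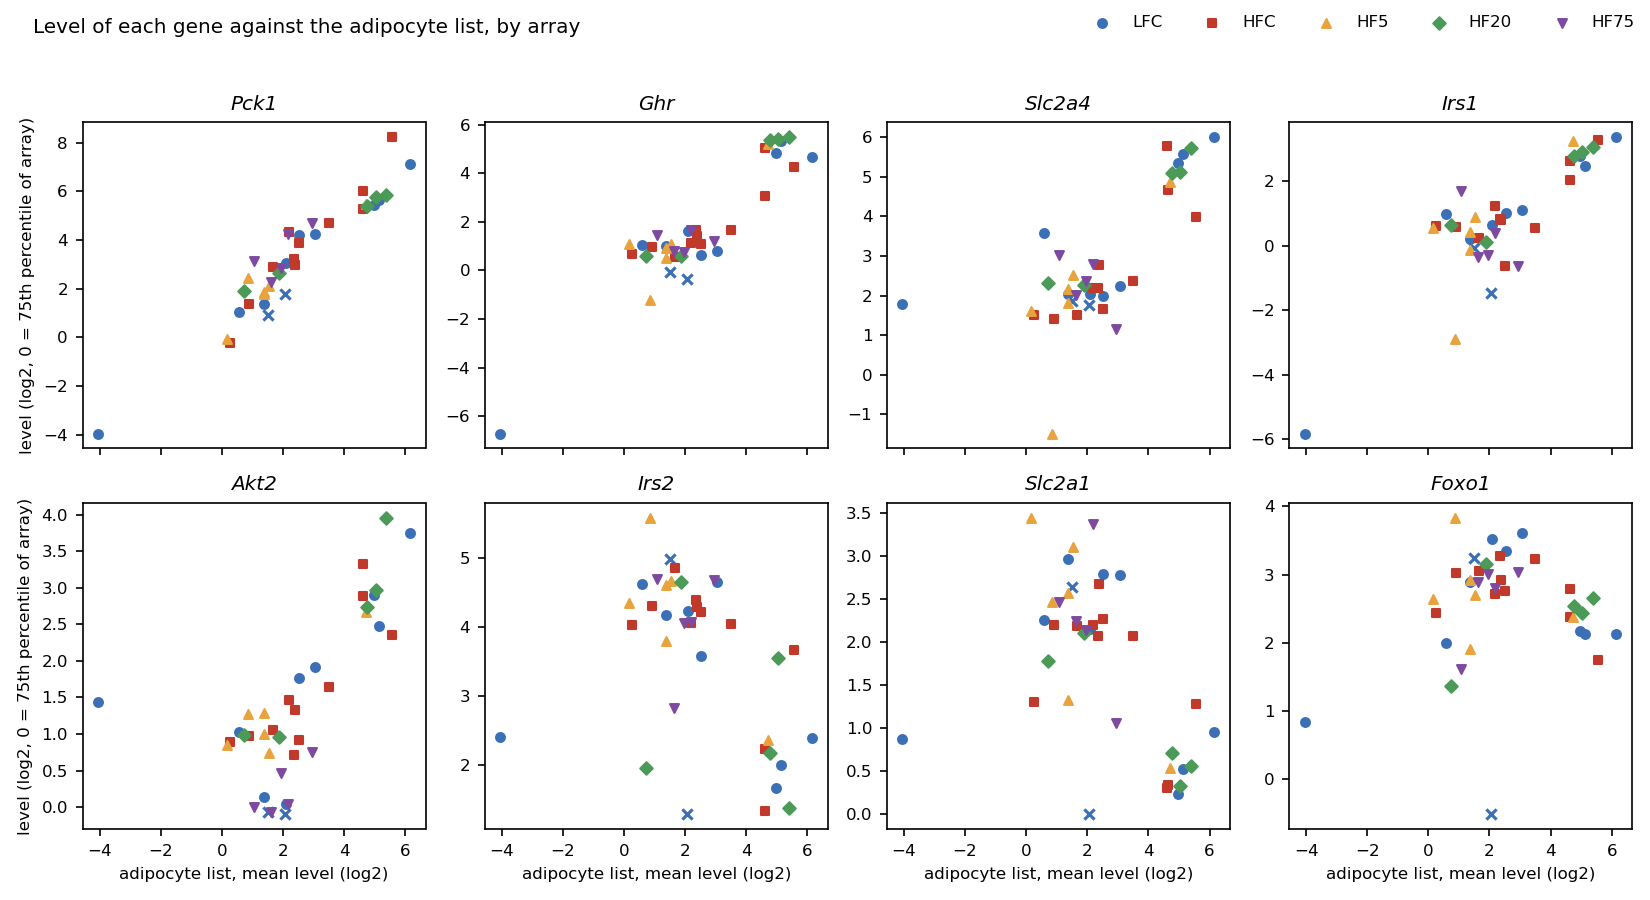
Level of 8 of the 10 genes (log2, vertical axis) against the mean level of the 10 adipocyte markers (log2, horizontal axis), where 1 point is 1 array, the marker gives the diet and crosses are the LFC arrays of week 3 and of the label day 14. LFC of week 18 stands alone at a list of -4.05, with Pck1 at -3.95 and Ghr at -6.72, and Pck1 values at a list of 4.62 or more are saturated.

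Over 36 arrays, without the 2 LFC arrays of week 3 and of the label day 14, Slc2a1 followed the digestion and immediate-early list (r 0.815, rho 0.803) and so did Irs2 (r 0.790, rho 0.631). Akt2 ran against it (r -0.821, rho -0.705), as did Slc2a4 (r -0.725, rho -0.457). Without the 2 arrays farthest from its median, the r values were 0.803, 0.738, -0.794 and -0.658 in that order, and within time points they were 0.778, 0.754, -0.821 and -0.675. The part of tissue handling in these levels was not tested. Among the 45 pairs of the 10 genes themselves, r was above 0.5 in 11 and below -0.5 in 5. The highest r was that of Irs1 and Ghr, 0.936, with LFC of week 18 among the arrays, where neither was well above background, and their rho was 0.758. The highest rho was that of Irs1 and Slc2a4, 0.797. The lowest r was that of Irs2 and Slc2a4, -0.763 (rho -0.589). The arrays fall into sets for several of these genes as they do for the adipocyte list, so that such r values, and those of the next paragraph, also carry the gap between the sets.

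The genes whose levels were most like each of the 10 were searched among 16501 others over the same 36 arrays. For Pck1 they were Cidec (r 0.961), Plin1 (0.949) and Thrsp (0.936), with the saturated arrays included, of which the first pair coat lipid droplets. For Ghr they were LOC100047573 (0.975), Rbp4 (0.972), which carries retinol in blood, and Amy1 (0.968). For Irs1 they included Rab34 (0.976) and Cgnl1 (0.947). Akt2 was most like Trap1 (0.961), Acads (0.956) and Mrpl37 (0.942), a chaperone, a fatty acid dehydrogenase and a ribosomal protein of mitochondria. Slc2a4 was most like LOC100044767 (0.961), Tmem205 (0.945) and D930001I22Rik (0.941). Irs2 was most like Arid5a (0.883), Foxp1 (0.881) and Tnfaip3 (0.859), and Slc2a1 like Gm5864 (0.923), 2010111I01Rik (0.914) and Ctps (0.914). Insr was most like Ate1 (0.873), Foxo1 like Rnf125 (0.803) and Pik3r1 like Ripply2 (0.649), so that Pik3r1 had the weakest partners. Without week 9 the values of the genes named here lay between 0.661 and 0.975.

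Other genes of the pathway were taken from lists of 96 genes, of which 95 had a probe. Over weeks 3 to 15, 18 of the 95 changed with the week, beside 14.2% of all probes. They were 7 of 38 insulin signalling genes, 4 of 13 brakes on the signal, 7 of 14 insulin-regulated metabolic genes, 0 of 22 uptake and trapping genes and 0 of 8 genes of growth hormone receptor signalling, where 8 and 5 had an unadjusted p under 0.05 in limma, beside 34.8% of all probes. With every probe of the last 2 lists counted, 1 of 42 and 3 of 14 probes were called, beside the same 14.2%. The largest F was that of Fbp1, an enzyme of gluconeogenesis, with a mean of 2.33 at week 6 and -4.86 to -3.99 at the other weeks (F 23.7, limma-adjusted p 0.000339). Igfbp1, which binds insulin-like growth factors and is lowered by insulin in liver, had a mean of 0.54 at week 6 (F 15.3, limma-adjusted p 0.00148). At the other weeks it was mostly at the lowest level that counts as measured on an array, on all 5 arrays of week 3 and on 4 of 5 at weeks 9 and 12, so that no exact level is given there. Gyk, glycerol kinase, was the next, with -0.84 at week 6 and -3.77 to -2.72 elsewhere. On LFC of week 3, where that lowest level is high, the values of Fbp1, Gyk, Lipe and Pik3r2 were set to it as well. Foxo1, whose protein drives such genes in liver, was at its lowest in that same week. Pik3r2, a sister of Pik3r1, had its highest mean, 1.65, at week 6. Pik3cd, a catalytic subunit rich in leukocytes, was highest at week 3 (3.82), Lipe, the hormone-sensitive lipase, at week 9 (2.64), and Enpp1, an inhibitor of the receptor, was lowest at week 9 (-1.39). The epithelial list was at a mean of 1.59 at week 6 and below 0 at the other weeks, and its part in the week 6 levels was not tested.

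High-fat feeding was compared with the low-fat diet over 11 pairs of arrays. No gene of the set differed beyond the spread between time points. Pck1 had the largest estimate, 1.07 higher in HFC, with saturated values in 4 of the 11 pairs, and Slc2a4 was lower in HFC in 8 of 11 pairs. Levels of Pck1 ran from -3.95 to 7.12 in LFC, with a median of 3.04, and from -0.24 to 8.24 in HFC, with a median of 3.88, where both highest values are saturated. The 2 diets overlapped. The difference had an SE of 0.72, with Pck1 higher in HFC in 7 of 11 pairs and a limma-adjusted p of 0.942. Of the 10 genes, 0 were called by limma, as were 0% of all probes (0 of 29215), and 0 had an unadjusted p under 0.05, against 806 probes. Their differences were positive for 7 and negative for 3, with a median of 0.33 beside -0.09 for all probes. The largest pairs were those of week 18, with 7.83 for Pck1, 7.82 for Ghr and 5.21 for Irs1, where the LFC array lacked the fat and stromal markers and Irs1 and Ghr were not well above background. Without that pair the difference of Pck1 was 0.39 (SE 0.48), that of Ghr 0.09 and that of Irs1 0.18. Without the pairs of week 3 and of the label day 14, Akt2 and Slc2a1 turned from 0.21 and 0.07 to -0.06 and -0.10.

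Single pairs went in both directions for each of the 10 genes. On day 1, Slc2a4 was 3.81 higher and Slc2a1 2.49 lower in HFC, with values of 5.80 against 1.98 and 0.31 against 2.80. In week 12, Slc2a4 was 2.58 lower and Slc2a1 2.45 higher in HFC, with 2.78 against 5.35 and 2.68 against 0.23. In both pairs the array with the higher Slc2a4 was the one with the higher adipocyte list, 4.62 in HFC of day 1 and 4.96 in LFC of week 12. None of the 92 other pathway genes tested was called by limma, and 4 had an unadjusted p under 0.05, beside 2.76% of all probes. The largest difference among them was that of Slc2a5, a fructose transporter, at -3.50 (SE 0.85, lower in HFC in 10 of 11 pairs, limma-adjusted p 0.942), which includes values at the lowest measured level of the array at weeks 3, 12 and 18 and is not exact. Socs3, a brake on cytokine and insulin signals, followed at 1.45 and Grb14, an inhibitor bound to the receptor, at 1.40. Without week 12 Socs3 was 0.92 higher, and without week 18, where Grb14 was not well above background in LFC, Grb14 was 0.83 higher.

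At the low dose of Kal-1 no gene of the set was called. Over the 6 pairs, the mean differences of HF5 from HFC lay between -0.42 for Pck1 and 0.41 for Slc2a1, with single pairs from -3.12 for Irs1 at week 3 to 2.01 for Pck1 at week 6. Without week 6 Pck1 was -0.91 and without week 18 -0.15, and without week 15 Slc2a1 was 0.25. Without week 3 Irs1 turned from -0.36 to 0.19 and Slc2a4 from -0.34 to 0.19. Slc2a1 was higher in HF5 in 5 of 6 pairs, Irs2 in 5 and Pik3r1 in 5. Slc2a1 levels at weeks 3 to 18 were 2.47, 1.32, 0.53, 2.57, 3.45 and 3.10 in HF5 and 2.19, 1.30, 0.34, 2.68, 2.20 and 2.26 in HFC. The 2 diets overlapped, and both were lowest at week 9. Of the 10 genes, 0 were called by limma beside 0% of all probes (0 of 29200), 0 had an unadjusted p under 0.05 beside 1517 probes, and 4 were higher and 6 lower, with medians of -0.03 for the 10 and 0.01 for all probes. HF5 of week 3 set the widest pair of Irs1 (-3.12), of Slc2a4 (-3.01) and of Ghr (-1.75). The levels on this array were -2.88 for Irs1, -1.49 for Slc2a4 and -1.20 for Ghr, the lowest of HF5 for each. On that array the fibroblast list (2.93) and the endothelial list (-2.86) were the lowest of HF5 and the T cell list (2.29) the highest, and their part was not tested. Of 90 other pathway genes, 0 were called by limma and 4 had an unadjusted p under 0.05, beside 5.20% of all probes. The largest differences were those of Gyk (1.13), Slc2a5 (1.06, with values at the lowest measured level) and Grb14 (-0.99, and -0.34 without week 3).

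At the middle dose no gene of the set was called. HF20 exceeded HFC by a mean of 1.77 for Ghr, 1.73 for Slc2a4, 0.94 for Irs1 and 0.89 for Akt2, and lay below it by a mean difference of -1.20 for Irs2 and -0.65 for Slc2a1. Akt2 was higher in HF20 in 3 of 5 pairs, Irs1 and Ghr in 4 and Slc2a1 in 2. Without week 12 the differences were 0.46 for Akt2, -0.28 for Slc2a1 and -0.77 for Irs2, and without week 15 that of Irs1 was 0.58. The estimate for Pck1, 1.87 and without week 15 1.24, is not exact, since its probe was saturated on HF20 at weeks 9, 12 and 15 and on HFC at week 9. Slc2a4 was 2.27, 2.31, 5.09, 5.73 and 5.13 in HF20 and 1.52, 1.51, 4.66, 2.78 and 1.41 in HFC at weeks 3, 6, 9, 12 and 15. It was higher in HF20 in 5 of 5 pairs, and the ranges overlapped. Irs2 was 4.66, 1.95, 2.17, 1.36 and 3.56 in HF20 and 4.85, 4.03, 2.23, 4.29 and 4.30 in HFC at the same weeks. It was lower in HF20 in 5 of 5 pairs, by little at weeks 3 and 9, and the ranges overlapped. Ghr was 0.61, 0.61, 5.39, 5.51 and 5.43 in HF20 and 0.55, 0.69, 5.04, 1.41 and 0.98 in HFC, so that the diets parted at weeks 12 and 15 alone, with pairs of 4.09 and 4.45 against -0.08 to 0.35 at the other weeks. Insr was higher in HF20 in 5 of 5 pairs, by 0.10 to 1.25. The 5 pairs of HF20 and HFC cannot give an exact sign-flip permutation p under 0.0625, and Insr, Slc2a4 and Irs2 reached it.

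In limma, 0 of the 10 genes were called beside 0% of all probes (0 of 30831), and 4 (Insr, Slc2a4, Pck1 and Irs2) had an unadjusted p under 0.05 beside 3673 probes. The smallest adjusted p of the set was 0.401, with differences of 0.77 (SE 0.24) for Insr, 1.73 (SE 0.56) for Slc2a4, 1.87 (SE 0.70) for Pck1 and -1.20 (SE 0.48) for Irs2. The median of the 10 was 0.83 beside 0.08 for all probes, with 7 higher and 3 lower. The adipocyte list was higher in HF20 in 5 of 5 pairs, with a mean difference of 1.59 (SD 1.85) and a largest pair of 4.13. The immediate-early list was lower in 4 of 5 pairs (mean -2.75) and the macrophage and fibroblast lists in 5 of 5 (means -0.75 and -0.49), and the part of these lists in the differences was not tested. Of 94 other pathway genes, 0 were called by limma and 22 had an unadjusted p under 0.05, beside 11.9% of all probes. The largest were Slc2a5 at 2.80, Igfals, a partner of insulin-like growth factors in blood, at 2.59 and Socs3 at -2.52. Slc2a5 used a value at the lowest measured level on HFC of week 12, and Igfals on both arrays of week 6. The Igfals pairs of weeks 3 and 15 also hold values not well above background, so that neither gene has an exact difference. Week 15 was the largest pair of Igfals, at 5.97, and without it the mean was 1.74. Without week 12 Slc2a5 was 1.42 and Socs3 -1.55.

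At the high dose, Akt2 was lower than under high-fat feeding alone at every time point. Its levels in HF75 were 0.47, 0.00, 0.76, -0.06 and 0.04 at weeks 3, 6, 9, 12 and 15, and in HFC they were 1.05, 0.89, 2.89, 1.33 and 0.97. All 5 HF75 arrays lay below all 5 HFC arrays. The diets were parted in this way, in either direction, in 3.51% of the probes tested (1015 of 28910). The mean difference was -1.19 (SE 0.29), lower in 5 of 5 pairs, with a limma-adjusted p of 0.136, so that Akt2 was not called. The second Akt2 probe gave -1.64 (SE 0.31, limma-adjusted p 0.0716), and over the arrays it followed the first with r 0.888. The HF75 arrays also had a lower median signal over background, 3.50 to 4.05 against 4.12 to 7.23 in HFC of the same weeks, and a lower 75th percentile in every pair, and the part of array quality in these levels was not tested. Since both probes gave the difference, the second, whose letters come from the deposited table and which reads another stretch of the transcript, is printed here.
Akt2 second probe: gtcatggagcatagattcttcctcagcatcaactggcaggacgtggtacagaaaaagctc

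Pik3r1 went the other way. Its levels were 1.02, 1.28, 0.98, 1.31 and 1.15 in HF75 and 0.63, 0.61, 0.84, 0.02 and 0.72 in HFC at the same weeks. All 5 HF75 arrays lay above all 5 HFC arrays, as did those of 559 of the 28910 probes. The difference was 0.58 (SE 0.26, limma-adjusted p 0.360), and the other 3 probes of Pik3r1 were also higher, by 0.10 to 0.42, though over the arrays the 2 dimmest followed the brightest with r of only 0.381 and -0.0175. The remaining 8 genes overlapped between the diets, with mean differences from -0.80 for Irs1 (-0.19 without week 9) to 1.00 for Pck1 (0.41 without week 6). Of the 10 genes, 0 were called by limma, where 1.02% of all probes were called (295 of 28910, 236 higher and 59 lower in HF75). Akt2 alone had an unadjusted p under 0.05, beside 4220 probes, and 5 of the 10 genes were higher and 5 lower, with medians of 0.02 for the 10 and -0.01 for all probes.

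Week 9 weighed heavily in the high-dose comparison, and the adipocyte list there was 2.93 in HF75 and 4.63 in HFC. In that pair Ghr was lower by a difference of -3.83, Slc2a4 by -3.52 and Irs1 by -3.25. Without week 9 Akt2 kept a difference of -0.95 (SE 0.23, limma-adjusted p 0.163), while Slc2a4 turned from -0.10 to 0.75, Ghr from -0.56 to 0.26 and Irs2 from 0.13 to -0.45. Over the 5 pairs the adipocyte list did not lean one way (mean -0.02, SD 1.21) and neither did the immediate-early list (0.03), whereas the macrophage list was lower in 5 of 5 pairs (mean -0.89) and the epithelial list higher in 5 of 5 (mean 1.26), and their part in the Akt2 levels was not tested. The 295 probes were 0 without week 3, 7 without week 6, 95 without week 12 and 35 without week 15. HFC and HF75 were scanned on the same day at weeks 12 and 15 alone, where Akt2 differed by -1.16 (SE 0.42). Of 89 other pathway genes, 0 were called by limma and 6 had an unadjusted p under 0.05, beside 14.6% of all probes. Pdpk1, the kinase that switches on Akt, was 1.88 higher in HF75 (5 of 5 pairs), and Gys1, glycogen synthase of muscle and fat, differed by -1.32 (lower in 5 of 5) and Hk2, a hexokinase, by -1.13 (lower in 3 of 5). Without week 9 these were 1.23, -0.86 and -0.53.

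**Figure D3:**
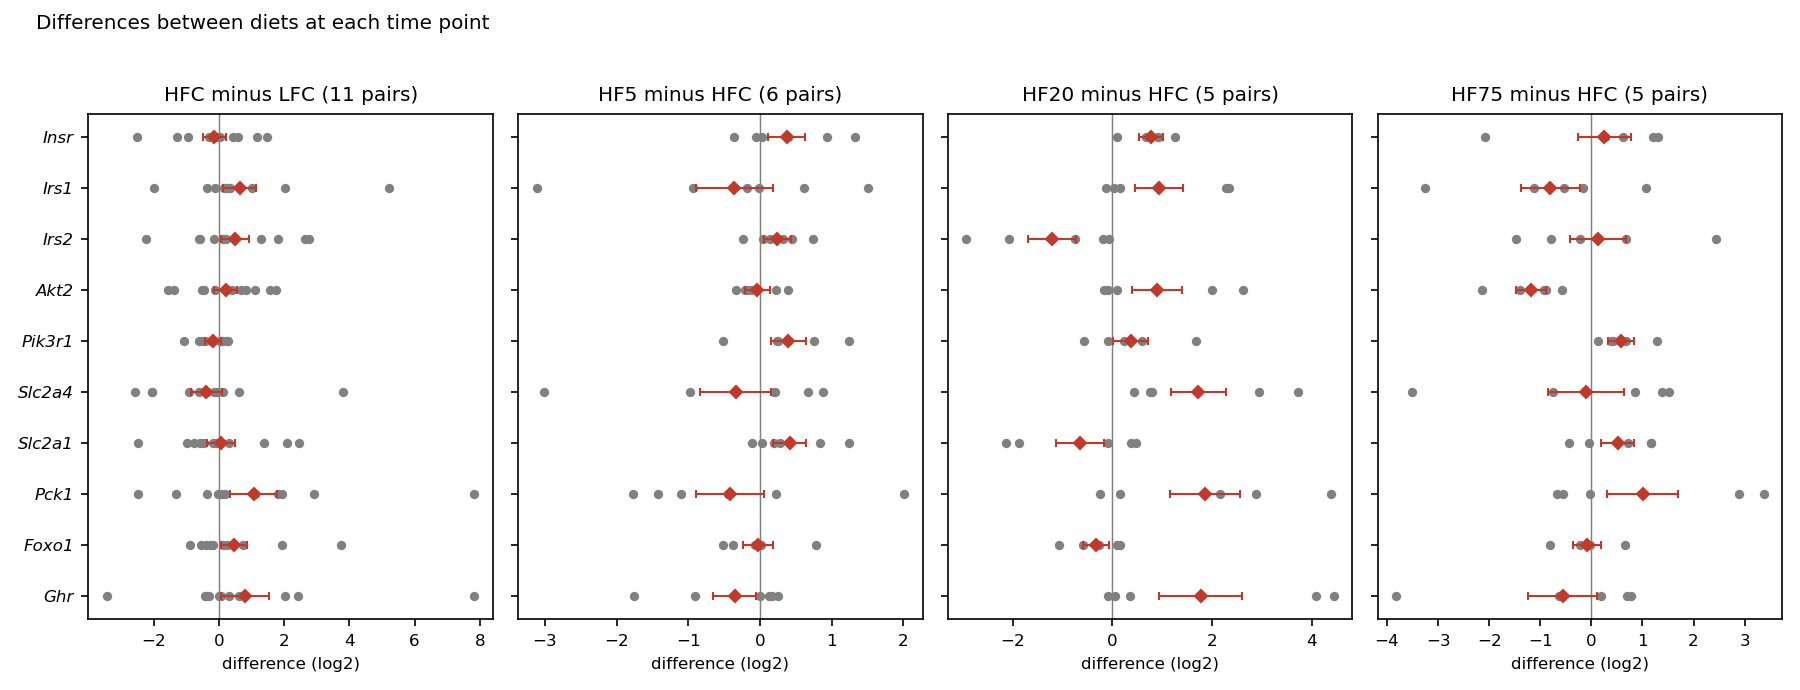
Difference in level (log2) of each gene in 4 comparisons of diets, where grey points are the pairs of arrays of a time point and red diamonds with bars are the fitted difference and its SE. In HF75 minus HFC all 5 Akt2 pairs lay below 0 and all 5 Pik3r1 pairs above it, and in HFC minus LFC the pairs near 8 are Pck1 and Ghr of week 18.

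The high dose was also set against the low dose, in which Akt2 was again lower. In HF5 it was 1.28, 1.29, 2.67, 1.00 and 0.84 at weeks 3 to 15, and all 5 HF75 arrays lay below all of these, where 0.732% of the probes tested (210 of 28683) had diets that did not overlap. The difference was -1.18 (SE 0.31, lower in 5 of 5 pairs, limma-adjusted p 0.345). The digestion and immediate-early list was a mean of 1.08 higher in HF75 (4 of 5 pairs), and the macrophage list differed by -0.61 (lower in 5 of 5). HF75 also had a lower 75th percentile than HF5 in every pair, and the part of these in the Akt2 levels was not tested. The 2 comparisons share the HF75 arrays, and each gives its own values. For Pik3r1 the levels of HF75 and HF5 overlapped, with a difference of 0.19 (SE 0.30), and 0.08 without week 9. Of the 10 genes, 0 were called by limma beside 0% of all probes (0 of 28683), and Akt2 alone had an unadjusted p under 0.05, beside 2453 probes. The set had 4 genes higher and 6 lower, with a median of -0.04 beside -0.01 for all probes. Of 89 other pathway genes, 0 were called by limma and 6 had an unadjusted p under 0.05, beside 8.55% of all probes. The largest differences were those of Grb14 at 1.36, Hk2 at -1.35 and Pdpk1 at 1.34. Grb14 was 0.66 without week 3, and without week 9 Hk2 was -0.77 and Pdpk1 0.85.

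Whether the gap between high-fat and low-fat feeding itself moved with time was asked by comparing weeks 3 to 18 with days 1 to 14 and week 0. None of the 10 genes was called for such a shift. Slc2a4 had the largest difference, with HFC minus LFC at a mean of 0.50 early and -1.11 late (difference -1.61, SE 0.91), and without the pair of day 1 its difference was -0.78. Insr had a smaller difference but the lowest p of the 10 (-1.34, SE 0.64, unadjusted p 0.0576), with values at the lowest measured level on LFC of week 3 and of the label day 14, and without these pairs it was -0.85. In limma 0 of the 10 were called beside 0% of all probes (0 of 29215), with adjusted p of at least 0.815. At an unadjusted p under 0.05 the counts were 0 of the 10 and 1233 probes. The 10 had 4 positive and 6 negative shifts, with a median of -0.10 beside -0.50 for all probes. Without the pairs of week 3 and of the label day 14 the median of all probes was -0.12. Among 92 other pathway genes, none was called by limma and 4 had an unadjusted p under 0.05, beside 4.22% of all probes. The largest shifts among them were Gyk at -2.87, Socs3 at 2.41 and Gys1 at -2.20. Without the pair of day 1 they were -1.73, 1.04 and -1.42. Values not well above background entered the pair of week 3 for Gyk and Gys1, that of the label day 14 for Gyk and that of week 18 for Gys1.

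Over the 36 arrays Pck1 and Ghr moved together (rho 0.787, with Pck1 saturated on 10), as did Irs2 and Slc2a1 (r 0.743), and for this reason their promoters are shown. The RefSeq table of promoters (build GRCm38.p6), with 250 bases before and 50 after each start, held 13 promoters of 8 of the 10 genes, with Insr and Slc2a4 missing. They were searched on both strands for GTAAACA, letters bound by FoxO factors, and for GGGCGG, the GC box. The first was in 0 of the 13 and in 3.65% of all 32851 promoters (1199). The second was in 8 of the 13, at least 1 for each of the 8 genes, and in 35.7% of all promoters (11714). Capitals mark the GC box on either strand, and the sequences run 5′ to 3′ on the strand of the gene.
Pck1, chr2:173152823-173153122, plus strand: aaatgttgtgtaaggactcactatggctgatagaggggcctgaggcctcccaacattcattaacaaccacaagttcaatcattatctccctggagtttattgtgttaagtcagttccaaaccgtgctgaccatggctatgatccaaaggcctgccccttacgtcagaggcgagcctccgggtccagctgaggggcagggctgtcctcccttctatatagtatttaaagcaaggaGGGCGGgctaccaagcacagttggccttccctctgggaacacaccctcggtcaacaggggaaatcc
Ghr, chr15:3583303-3583602, minus strand: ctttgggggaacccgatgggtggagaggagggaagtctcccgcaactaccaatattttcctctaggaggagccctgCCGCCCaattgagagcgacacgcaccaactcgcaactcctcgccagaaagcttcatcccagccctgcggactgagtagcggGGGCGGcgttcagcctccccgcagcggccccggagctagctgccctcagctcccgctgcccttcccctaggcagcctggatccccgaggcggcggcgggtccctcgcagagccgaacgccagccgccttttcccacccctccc
Irs2, chr8:11008880-11009179, minus strand: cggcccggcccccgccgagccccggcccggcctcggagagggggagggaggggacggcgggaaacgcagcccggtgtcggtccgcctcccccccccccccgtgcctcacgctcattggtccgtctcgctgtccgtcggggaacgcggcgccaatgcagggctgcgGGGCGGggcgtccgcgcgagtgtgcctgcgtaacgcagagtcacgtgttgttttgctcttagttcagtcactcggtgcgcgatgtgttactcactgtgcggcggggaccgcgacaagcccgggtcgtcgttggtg
Slc2a1, chr4:119108495-119108794, plus strand: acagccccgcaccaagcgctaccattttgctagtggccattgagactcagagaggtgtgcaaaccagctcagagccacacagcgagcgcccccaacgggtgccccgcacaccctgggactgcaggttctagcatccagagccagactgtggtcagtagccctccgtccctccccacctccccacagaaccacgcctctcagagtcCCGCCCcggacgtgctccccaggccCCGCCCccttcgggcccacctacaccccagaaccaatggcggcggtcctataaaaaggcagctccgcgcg
The promoters of Pck1 and Irs2 hold the box 1 time, and those of Ghr and Slc2a1 2 times. The table holds another Ghr promoter, chr15:3581793-3582092, which holds the box 0 times and has a G and C content of 52.3%. The G and C content was 52.0% for Pck1, 67.0% for the Ghr promoter shown, 72.0% for Irs2 and 65.3% for Slc2a1, against a median of 52.7% over all promoters. The letters are a description of these windows and name no factor at work in these cells.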

How the data were processed

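Per the file headers, the deposited intensities came from Feature Extraction 10.5.1.1, which subtracted background and corrected trends within each array, while the submitters' notes name version 9.1. Log2 intensities were averaged over unmarked spots and the 75th percentile of each array was subtracted. Values not well above background, by the scanner software's mark on at least 50% of spots, were raised to the lowest well-measured level of their array where they lay below it. Of the authors' table of log2 fold changes, the 40 value columns were not used. Tests used limma 3.58.1 in R 4.3.3 and the data.table package, version 1.17.8, with the time point as block, or the diet as block over weeks. Between diets they ran on probes that passed this mark in 50% or more of one diet's arrays. Over weeks they ran on probes that passed it in 50% or more of one week's arrays. Other steps used Python 3.11.15, NumPy 2.4.6, pandas 2.3.3, SciPy 1.17.1 and Matplotlib 3.10.9. The members and lists were chosen with earlier results of these data known. All 10 genes are named. Of the other pathway genes, up to 5 per direction were to be named with the largest difference among called genes whose sign was shared by 5 of every 6 pairs or more, 8 with the largest F over time, and 3 with the largest absolute difference where none passed. The 3 most alike genes had the highest Pearson r among genes that passed the mark on 80% of arrays or more. Of the genes these rules choose, 2 are not reported here. As a check of the pairing, the deviations of paired arrays from the means of their diets had a median r of 0.36 for HFC and LFC, 0.42 for HF5, 0.35 for HF20 and 0.14 for HF75 against HFC.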

Additional observations from a re-analysis of the deposited data

Results flagged for a closer look

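In groups of 4 to 10 arrays, the highest or lowest value was set against the critical value of Dixon for its gap to the nearest array. The 10 genes give 30 such groups, and 3 met it, where chance gives about 1 in 20 groups. Akt2 was 2.67 on HF5 of week 9, with the other 5 HF5 arrays between 0.74 and 1.29 (gap ratio 0.718). Ghr was 5.21 on the same array, with the other 5 between -1.20 and 1.11 (gap ratio 0.640). The adipocyte list was 4.72 on that array and at most 1.53 on the other HF5 arrays, and its part was not tested. Foxo1 was 1.61 on HF75 of week 6, with the other 4 HF75 arrays between 2.80 and 3.04 (gap ratio 0.830), in the week with the lowest mean Foxo1 of weeks 3 to 15.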

How the results depend on the processing

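Of 1120 differences of the 10 genes between diets or between late and early pairs under other settings, 1028 kept their sign, 92 did not, 20 of these by at least 1 SE, and 0 were called. For HF75 against HFC, the 295 probes were 153 with no filter on dim probes, 149 with probes well above background on every array, 0 to 200 with 1 time point left out (0 without week 3, 200 without week 9), and 0 with all 38 arrays in one fit, 0 without the time point as block and 0 with pairs scanned on the same day. Over time, the 3 called genes were 6 with normexp (offset 50), where 20036 of 31567 probes were called. They were 5 with dim values set to missing (4648 of 27957 probes) and 1 without week 9 (3222 of 31039 probes). With 1 diet left out they were 0 to 6, namely 0 without HF5 (582 of 33569 probes) and 6 without HF75 (4060 of 33672 probes). Under normexp Foxo1 was not called (limma-adjusted p 0.237). The 4497 probes over time were 20036 with normexp, 1756 with probes well above background on every array, 7030 without the LFC array of week 3, and 541 without HFC to 4060 without HF75. For late against early pairs, normexp gave 5351 probes (5258 higher, 93 lower) where there were 0, and no call among the 10 genes. A slide block was not run for HF20 and HF75, where no slide holds 2 arrays of a comparison. Most diets have 1 array per time point, the labels do not say how many mice gave an array, and p-values measure only the spread between these arrays. With 5 pairs a sign-flip p cannot go below 0.0625.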

Other observations

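2 arrays of week 18 entered no comparison, since the labels of each name both HF20 and HF75. On one of them, with 21710 of 43803 spots marked by the scanner software, Akt2 was -1.78 and Slc2a4 0.57, both below every LFC and HFC array, while the other 8 genes lay within the range of those arrays. On the other, all 10 genes lay within that range, with Akt2 at 1.23, Slc2a4 at 2.59, Pck1 at 5.16 and Ghr at 1.70. The adipocyte list was 0.91 on the first and 2.92 on the second.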
